A study of Mus musculus with 6 samples.

Results

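Macrophages and monocytes from the same rhabdoid tumors were compared in single-cell RNA sequencing of 6 murine tumors, after each cell had been assigned from its own transcripts. Of 22163 cells that passed the cell filter (200 or more genes with a UMI, mitochondrial share no higher than 25%), 4107 were taken as macrophages and 1168 as monocytes. The members were selected on measured values. A macrophage held at least 20 UMIs of C1qa, C1qb and C1qc together per 10000 UMIs of the cell and none of Ly6c2 or Ccr2. A monocyte held at least 2 of Ly6c2, Ccr2 and F13a1 and fewer than 20 C1q UMIs per 10000. Cells with any UMI of Cd3d, Cd3e or Cd3g, with 300 or more UMIs of S100a8 and S100a9 per 10000, or with 3 or more of Mpo were left out of both kinds. A UMI, or unique molecular identifier, marks 1 captured transcript. In each tumor the UMIs of all macrophages were added together, likewise those of all monocytes, and the sums were compared paired by tumor in the 5 tumors with at least 10 cells of each kind, which held 4099 macrophages and 297 monocytes.

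Monocytes that carry Ly6c2 and the chemokine receptor Ccr2 leave the blood and enter inflamed or neoplastic tissue. Within the tissue they can lose both genes and take on macrophage features, among them the complement component C1q, the lipid carrier Apoe, lysosomal hydrolases and antigen presentation by MHC class II. Some tissues also hold macrophages seeded before birth, such as the microglia of the central nervous system, and a single transcriptome does not tell these origins apart.

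All tumors arose in Smarcb1 fl/fl mice in which a tamoxifen-dependent cre recombinase (creERT2) removed Smarcb1, a subunit of the SWI/SNF chromatin remodeller, after a single dose of 50 mg per kg was given to the pregnant dam at 6.5 days post coitum. The 3 MYC spinal tumors came from Rosa26-cre mice aged 19, 26 and 17 weeks (named MYC spinal 1, 2 and 3 here), in which cre stands under a ubiquitous promoter. The 3 extracranial rhabdoid tumors (eRT) came from a Rosa26-cre mouse of 17 weeks with a tumor of a gland (eRT 1) and from Sox2-cre mice of 29 weeks (eRT 2, jaw) and 22 weeks (eRT 3, shoulder), in which cre follows the Sox2 promoter. The study's own sample summary lists a lower age for the mouse of eRT 1. Each library was 1 tumor of 1 mouse, no tumor-free tissue was analysed here, and strain and site both vary with subtype. The macrophage sums held between 213076 and 4881909 UMIs in the 5 tumors compared and the monocyte sums between 14673 and 292499.

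The balance of the kinds differed widely between tumors. Macrophages outnumbered monocytes in MYC spinal 1 (101 against 21), MYC spinal 3 (1133 against 95), eRT 1 (619 against 36) and eRT 3 (2136 against 10). MYC spinal 2 had the opposite makeup with 8 macrophages and 871 monocytes, and eRT 2 lay between with 110 and 135. MYC spinal 2 also differed in the cells left out of both kinds. Of its 5749 cells that passed the cell filter, 1635 reached the limit on S100a8 and S100a9 and 1272 that on Mpo. No other tumor had more than 208 and 44 such cells, and the part of this in the balance was not tested. As a share of both kinds, macrophages made up 82.8% (exact 95% binomial interval 74.9 to 89.0) in MYC spinal 1, 0.91% (0.394 to 1.79) in MYC spinal 2 and 92.3% (90.6 to 93.7) in MYC spinal 3. In eRT 1, 2 and 3 the share was 94.5% (92.5 to 96.1), 44.9% (38.6 to 51.4) and 99.5% (99.1 to 99.8). The intervals cover counting error only, and within either subtype the tumors differed by far more than them. The mean share was 79.6% ± 30.2 (SD, n = 3) in eRT and 58.7% ± 50.2 (SD, n = 3) in MYC spinal tumors, a difference of 20.99 percentage points that did not pass a 2-sided exact permutation test over tumors (p = 0.5, the smallest attainable p being 0.1). Without MYC spinal 2 the difference turned to -7.88 points (exact permutation p = 1).

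**Figure D1:**
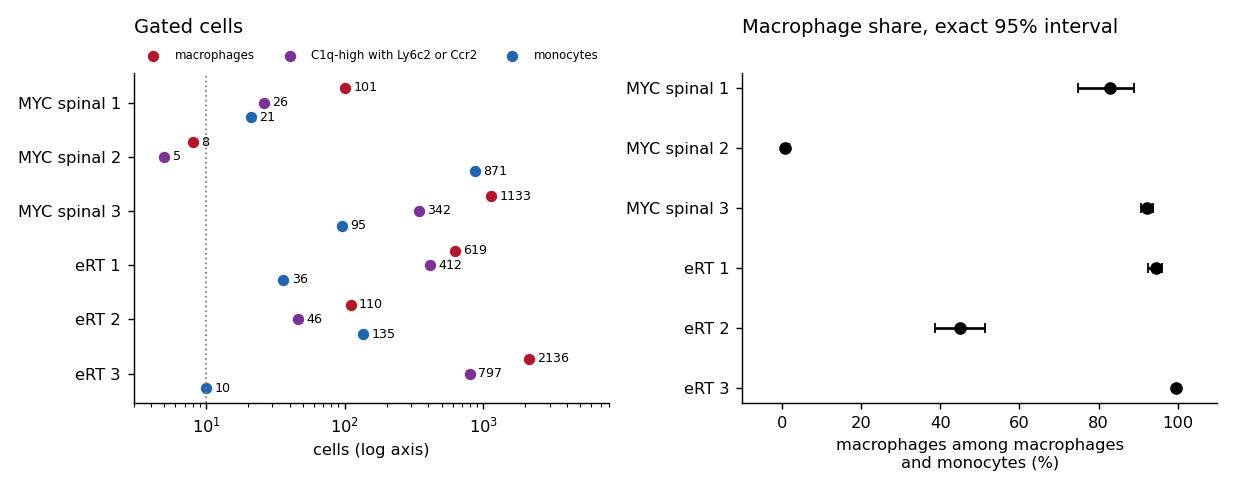
Left, macrophages, monocytes and C1q-high cells with Ly6c2 or Ccr2 per tumor on a log axis (numbers printed beside the points; dotted line at 10 cells, the minimum for the comparison). Right, macrophages as a percentage of macrophages and monocytes with exact 95% binomial intervals; MYC spinal 2 stands at 0.91% and eRT 2 at 44.9%, while the other 4 tumors lie between 82.8% and 99.5%.

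The genes that set the assignment are given as a description, with no test. C1qa, 1 of 3 chains of the first complement component, held 14765, 3838, 6009, 4674 and 5829.7 CPM (UMIs of the gene per 1000000 UMIs of the sum) in the macrophage sums of MYC spinal 1, MYC spinal 3, eRT 1, eRT 2 and eRT 3, an order of tumors kept in every list of 5 values that follows. The monocyte sums held 44.0, 99.1, 138, 13.6 and 68.2. Ly6c2, a surface protein of inflammatory monocytes, was absent from macrophages by definition and stood at 2200.1, 694, 267, 792 and 341 in monocytes. Ccr2, the receptor for Ccl2, stood at 748, 315, 553, 747 and 818. F13a1, the A chain of coagulation factor XIII, was not required to be absent from macrophages and was found there at 0, 9.11, 24.2, 309.7 and 133, against 337, 325, 921, 769 and 613 in monocytes. eRT 3 and eRT 2 held most of the F13a1 seen in macrophages, with 450 of 2136 and 39 of 110 cells carrying a UMI. Near the C1q limit, 181 of 4107 macrophages had 20 to 30 C1q UMIs per 10000, and 343 cells, 13 of them monocytes, had 10 to 20. On the monocyte side, 931 of 1168 cells held exactly 2 of the 3 genes and 237 all 3, while 1991 cells below the C1q limit held exactly 1 and were not assigned. Ly6c2 is nearly identical in sequence to Ly6c1, so reads of the pair may have been divided between them.

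The assignment was checked on 7 markers of each kind that it did not use. The macrophage markers (Adgre1, Cd68, Mertk, Mrc1, Fcgr1, Csf1r and Apoe) summed to 89113, 5134, 12065, 28365 and 40914 CPM in macrophages and to 22603, 1326, 7215, 5684 and 13971 in monocytes. The sum was higher in macrophages in all 5 tumors, and Apoe made up most of it in every macrophage sum. The single markers did not all follow it. Fcgr1 held 631, 102, 278, 370.8 and 238 CPM in macrophages and 719, 109, 599, 371.1 and 204 in monocytes, so only eRT 3 had more in macrophages. Mrc1 in MYC spinal 1, Mertk in eRT 1, and Adgre1 and Cd68 in eRT 3 were also lower in macrophages. The monocyte markers (Plac8, Chil3, Vcan, Hp, Ms4a4c, Ly6c1 and Itga4) summed to 206, 247, 286, 704 and 128 in macrophages and 9666, 2827, 4635, 6716 and 886 in monocytes. This sum was lower in macrophages without exception in the 5 tumors. Of the single markers, Itga4 in eRT 1 (19.1 against 18.4) and Hp in eRT 3 (0.41 against 0) were higher in macrophages. Ly6c1 in MYC spinal 1 and eRT 3 and Vcan in eRT 3 were at 0 in both kinds. The monocyte sums of eRT 3, MYC spinal 1 and MYC spinal 3 stood apart.

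The 10 monocytes of eRT 3 carried the smallest monocyte marker sum of the 5 tumors and the second largest macrophage marker sum among the monocyte sums. Vcan, Hp and Ly6c1 were all at 0 there, Cx3cr1 stood at 477 CPM against 485 in the macrophages of the same tumor, and Cd74 at 33463 against 40200.0. With 14673 UMIs in that sum, 1 UMI is worth 68.2 CPM and a count of 0 allows up to 204, so the comparison was repeated without this tumor. The 21 monocytes of MYC spinal 1 held 865 CPM of 6 NK cell genes (59 UMIs, in 3 of the 21 cells), against at most 190.1 in any other monocyte sum and 29.0 in any macrophage sum of the tumors compared. The 95 monocytes of MYC spinal 3 held 74 UMIs of Prtn3, 34 of Elane and 16 of Ctsg, all granule genes, against 7, 2 and 1 in its 1133 macrophages. The other monocyte sums compared held at most 2 UMIs of any of these genes.

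Genes of further cell types were also present, and their part in the results was not tested. The 7 neutrophil genes ranged from 0 to 484 CPM in monocyte sums (median 99.1) and from 3.22 to 75.1 in macrophage sums (median 46.0), and were higher in monocytes in 4 of 5 tumors. The 9 tumor or stromal genes ranged from 0 to 1005 (median 18.4, with Col1a1 at 0 in every monocyte sum) and from 41.8 to 493 (median 156), higher in macrophages in 4 of 5. The 6 osteoclast genes reached 3477 in the monocytes and 1651 in the macrophages of MYC spinal 3, and 2018 and 1813 in eRT 1, where 590 of 619 macrophages held such a UMI, with Calcr at 0 throughout. In MYC spinal 1 they stood at 543 in monocytes, from 12 of 21 cells, and at 57.9 in macrophages. They were higher in monocytes in 3 of 5 tumors. In MYC spinal 3 the monocyte value, from 60 of 95 cells, exceeded the monocyte marker sum of 2827. T cells held 3589.6 and 4537 of these genes in MYC spinal 3 and eRT 1. B cell genes stayed at or below 51.6, dendritic cell genes at or below 95.7, endothelial genes at or below 44.0, erythroid genes at or below 147, T cell genes other than Cd3 at or below 31.7 (Trac, Trbc1 and Trbc2 are in none of the tables) and mast cell genes at or below 29.3 in every sum compared. T cells, taken as cells with at least 2 UMIs of Cd3d, Cd3e or Cd3g, should lack Apoe and give its level from free RNA or from cells caught together. They held 675, 514, 751, 526 and 7602 CPM of Apoe in the same 5 tumors, all below the monocyte sum of their tumor. The 3 C1q genes together stood at 182, 979.8, 617, 142 and 2888 CPM in these T cells, and in eRT 3 that level lies above the macrophage limit of 20 UMIs per 10000.

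**Figure D2:**
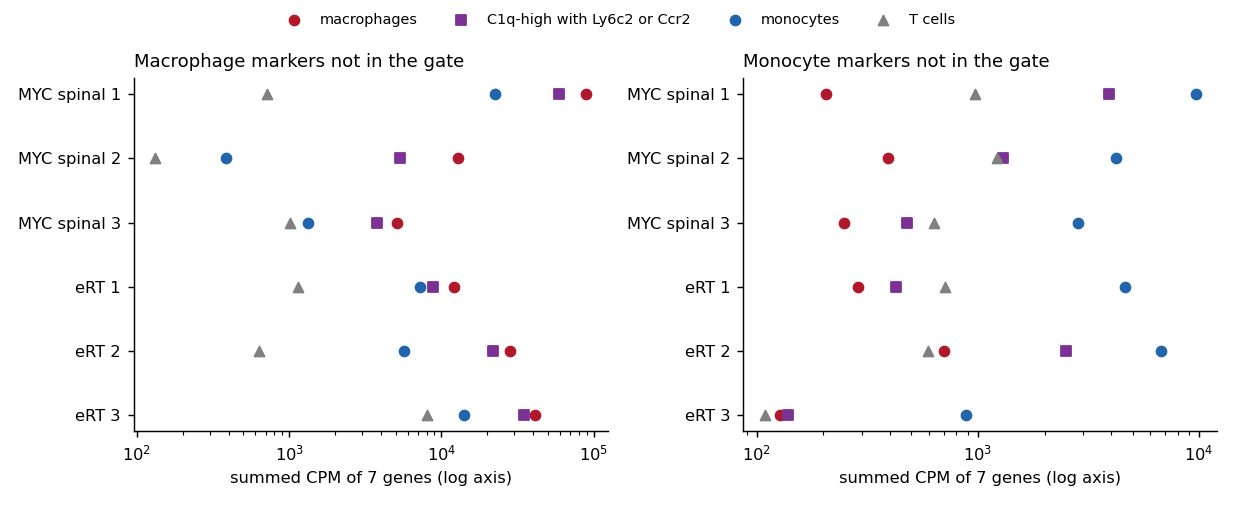
Summed CPM (log axes) of 7 macrophage markers (left) and 7 monocyte markers (right) that did not enter the assignment, for each tumor (rows) in macrophages, monocytes, C1q-high cells with Ly6c2 or Ccr2, and T cells. In each tumor compared, macrophages have the higher value of both kinds in the left panel and the lower in the right panel, where the monocytes of eRT 3 are the lowest monocyte point at 886.

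Across the transcriptome, 111 of 2945 genes tested outside the assignment differed between the kinds within tumors at an adjusted p under 0.05 (edgeR quasi-likelihood test, tumor as a block, Benjamini-Hochberg adjustment): 64 were higher in macrophages (2.17% of the genes tested) and 47 lower (1.6%). For 25 genes all 5 macrophage sums lay above all 5 monocyte sums (0.849%) and for 32 they lay below (1.09%). Of the 25, 13 rest on a monocyte sum with 0 UMIs whose limit for a count of 0 reaches the lowest macrophage value, and 12 do not. None of the 32 does, but 1 UMI in the monocytes of eRT 3 is worth 68.2 CPM and can by itself set the order of a gene with low values. The median log2 fold change over all genes tested was 0.07. The kinds were defined on transcripts of the same cells, so these values describe how cells so assigned differ and are no evidence that the kinds exist. Without eRT 3, 37 genes were higher (1.22% of 3027) and 36 lower (1.19%), and 62 genes were called in both fits, all with the same sign, which is 55.9% of the first list and 84.9% of the second. Without MYC spinal 3, 70 were called. With plain library sizes the split moved to 48 higher and 64 lower, while DESeq2 gave 61 and 63.

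The chemokine gene Ccl8 had the largest difference in favour of macrophages. Ccl8, a ligand for receptors of the CC family, held 61.1, 60.5, 158, 2417 and 104 CPM in macrophages and 0, 6.84, 0, 18.1 and 0 in monocytes. All macrophage values lay above all monocyte values, but 3 of 5 monocyte sums held no UMI, and the 0 in eRT 3 allows a level above 4 of the 5 macrophage values. Among macrophages eRT 2 stood far above the others (log2 fold change 6.30 ± 0.60 (SE, n = 5 tumors), adjusted p = 6.59e-05). Ccl12, a ligand of Ccr2, held 2195, 622, 1688, 3970.4 and 2072 in macrophages and 264, 6.84, 516, 235 and 0 in monocytes, with no overlap (log2 fold change 3.76 ± 0.53 (SE, n = 5 tumors), adjusted p = 0.00205). Ccl8 was seen in a minority of macrophages in every tumor, from 2.38% of cells in MYC spinal 3 to 49.1% in eRT 2, and in T cells of the 6 tumors in at most 1.53%. Median depth was similar in the macrophages of eRT 2 (1584 UMIs) and its T cells (1319). Ccl12 was seen in 23.7% to 69.1% of macrophages of the tumors compared. T cells held a Ccl12 UMI in 1.16% to 18.6% of cells, and in eRT 1 that highest share lay beside the 19.4% of monocytes, at median depths of 2406 and 2163 UMIs, so Ccl12 in those monocytes cannot be told from background. Without eRT 3 the log2 fold changes were 6.29 and 3.56 (adjusted p = 0.00223 and 0.0215).

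Ccl12 and Ccl8 are neighbours on chromosome 11 in the same orientation (GRCm38, GENCODE M21: Ccl12 at chr11:82101845-82103400 and Ccl8 at chr11:82115185-82116799, plus strand, 11784 bases between them). Their promoters are shown with those of Chil3 and Rsad2, which differed in the opposite direction, so that the sequence in front of each can be read beside its values. Each run gives the 250 bases before the RefSeq start site in the direction of transcription (RefSeq, GRCm38.p6): chr11:82114935-82115184, plus strand, for Ccl8; chr11:82101595-82101844, plus strand, for Ccl12; chr3:106167565-106167814, minus strand, for Chil3; and chr12:26456453-26456702, minus strand, for Rsad2. Capitals mark matches, on either strand, to the PU box GAGGAA, the MAF half-site TGCTGA, the interferon-response core (GAAA, any 2 bases, GAAA), the C/EBP core TTGCNNAA and the TATA box TATAAA.
Ccl8: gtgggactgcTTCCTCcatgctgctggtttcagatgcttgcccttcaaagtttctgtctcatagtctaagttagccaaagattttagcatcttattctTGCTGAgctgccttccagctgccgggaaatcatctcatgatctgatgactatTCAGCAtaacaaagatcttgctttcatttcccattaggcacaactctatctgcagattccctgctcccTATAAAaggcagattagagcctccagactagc
Ccl12: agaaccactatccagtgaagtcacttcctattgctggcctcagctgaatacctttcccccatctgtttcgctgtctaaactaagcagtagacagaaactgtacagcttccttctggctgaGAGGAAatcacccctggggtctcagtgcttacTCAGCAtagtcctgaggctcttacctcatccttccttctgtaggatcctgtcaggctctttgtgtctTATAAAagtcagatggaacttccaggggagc
Chil3: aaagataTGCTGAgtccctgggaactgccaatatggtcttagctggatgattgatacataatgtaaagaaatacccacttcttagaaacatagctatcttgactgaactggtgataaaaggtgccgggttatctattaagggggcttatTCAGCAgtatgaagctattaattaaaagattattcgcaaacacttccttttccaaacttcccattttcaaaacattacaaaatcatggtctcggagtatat
Rsad2: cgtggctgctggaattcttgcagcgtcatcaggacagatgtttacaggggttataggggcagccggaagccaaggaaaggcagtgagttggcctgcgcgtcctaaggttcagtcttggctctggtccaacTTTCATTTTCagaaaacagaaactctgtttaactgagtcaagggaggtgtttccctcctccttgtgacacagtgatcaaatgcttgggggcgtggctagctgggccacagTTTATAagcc

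No printed matches overlap. The promoters of both chemokine genes held TATAAA close to the start (bases 32 to 27 before it in Ccl8 and 31 to 26 in Ccl12), a PU box and at least 1 MAF half-site. Chil3 held 2 MAF half-sites and no other match. Rsad2 was the only 1 of the 4 with the interferon-response core, at bases 120 to 111 before the start, and held the TATA box on the opposite strand. Among all 32851 RefSeq promoters cut to the same length, 23.3% held the PU box, 16.1% the MAF half-site, 12.4% the TATA box, 9.56% the C/EBP core and 2.98% the interferon-response core. Of the 64 promoters matched to 50 of the 64 genes higher in macrophages, 37.5% held the PU box, 15.6% the MAF half-site, 7.81% the interferon-response core, 9.38% the C/EBP core and 9.38% the TATA box. Of the 46 promoters matched to 38 of the 47 lower genes the shares were 26.1%, 10.9%, 10.9%, 13.04% and 10.9%. These are matches of letters and show neither binding nor its absence.

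Zmynd15, a zinc finger gene known from transcriptional repression in germ cells, held 80.5, 191, 509.6, 98.6 and 97.7 CPM in macrophages and 0, 10.3, 0, 4.53 and 0 in monocytes. The macrophage values lay above the monocyte values, although the 0 in eRT 3 allows a level above 4 of the 5 macrophage values, and eRT 1 was the highest among macrophages (log2 fold change 5.13 ± 0.49 (SE, n = 5 tumors), adjusted p = 6.59e-05). Tmem119, a membrane protein used as a marker of microglia, held 817, 89.8, 102, 84.5 and 275 against 44.0, 6.84, 9.21, 4.53 and 204. It was highest in the macrophages of the tumor MYC spinal 1, and the 204 in the monocytes of eRT 3 is 3 UMIs (log2 fold change 3.56 ± 0.45 (SE, n = 5 tumors), adjusted p = 0.000805; log2 fold change 4.12 without eRT 3). Apoe, which carries lipids and cholesterol, was the most abundant of the named genes with 85997, 4126, 10337, 26324 and 39029 against 20197, 632, 5436, 4648 and 12540.0. It was higher in macrophages in each tumor although the ranges overlapped, with the spread between tumors wider than the difference within any of them (log2 fold change 2.15 ± 0.26 (SE, n = 5 tumors), adjusted p = 0.000566).

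**Figure D3:**
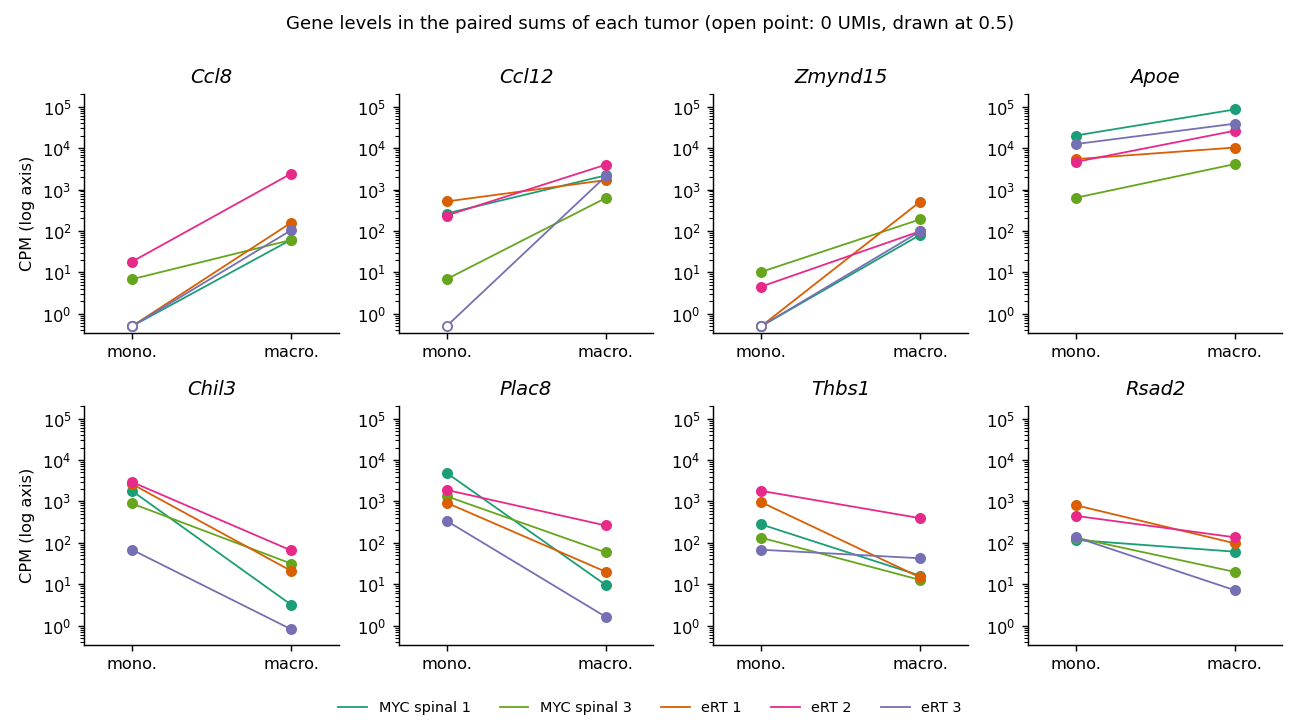
CPM (log axes) of 8 genes in the monocyte and macrophage sums of the 5 tumors, each line joining the sums of a tumor; open points are sums with 0 UMIs, drawn at 0.5. As drawn, all lines rise towards macrophages for Ccl8, Ccl12, Zmynd15 and Apoe and fall for Chil3, Plac8, Thbs1 and Rsad2, and monocytes of eRT 3 hold less Chil3 and Plac8 than those of the other tumors.

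Among the other genes named as higher in macrophages, Cd81 and Cd63, both tetraspanins, held 4544, 322, 466, 685 and 2237 and 3009, 1437, 2050.5, 1281 and 1518 CPM in macrophages, against 29.3, 212, 119.8, 13.6 and 136 and 176, 643, 286, 72.4 and 477 in monocytes. Neither overlapped between the kinds. The Cd81 difference was widest in MYC spinal 1 and eRT 2 and lost its call without eRT 3 (3.46 ± 0.78, adjusted p = 0.028; adjusted p = 0.159 without it), whereas that of Cd63 did not (2.90 ± 0.43, adjusted p = 0.00328). Cd72, an inhibitory lectin receptor shared with B cells, held 1622, 374, 545, 272 and 239.9 against 44.0, 82.1, 73.7, 40.7 and 0 (3.16 ± 0.42, adjusted p = 0.00109). B cell genes summed to at most 51.6 CPM in any sum compared.

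Hpgds, the haematopoietic prostaglandin D synthase, held 270.3, 68.3, 102, 84.5 and 112 CPM in macrophages and 44.0, 6.84, 0, 13.6 and 0 in monocytes (3.27 ± 0.42, adjusted p = 0.000872). Camk1, a calcium-dependent kinase, held 541, 236, 344, 178 and 316 against 102.7, 44.4, 36.9, 22.6 and 68.2, did not overlap between the kinds, and remained called without any 1 of the 5 tumors (2.77 ± 0.26, adjusted p = 6.59e-05). The adhesion molecule Cadm1 (3.40 ± 0.52), the synaptic vesicle protein Syngr1 (2.92 ± 0.44), the membrane protein Tmem176a (2.51 ± 0.30) and the nucleoside triphosphatase Ntpcr (2.18 ± 0.26) were likewise higher in all 5 tumors and remained called in each fit without 1 tumor. Axl, a receptor tyrosine kinase that binds dying cells, was higher by 2.01 ± 0.46 (adjusted p = 0.0286), but the call was lost without MYC spinal 1, eRT 1, eRT 2 or eRT 3 (adjusted p at most 0.0811).

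In the opposite direction, Chil3, the chitinase-like lectin Ym1 of monocytes and alveolar macrophages, had the largest difference. It held 3.22, 31.6, 21.1, 65.7 and 0.819 CPM in macrophages and 1804, 892, 2635, 2946 and 68.2 in monocytes. The kinds did not overlap, although eRT 3 contributed 1 UMI on the monocyte side (log2 fold change -6.05 ± 0.46 (SE, n = 5 tumors), adjusted p = 9.41e-06; -6.06 without eRT 3). Chil3 has close paralogues, and reads shared with them may be missing from these counts. Plac8, a small cysteine-rich protein abundant in monocytes and lymphocytes, held 9.65, 58.9, 20.1, 263 and 1.64 against 4899, 1337, 931, 1896 and 341 (log2 fold change -5.21 ± 0.65 (SE, n = 5 tumors), adjusted p = 0.00075; -4.98 without eRT 3). T cells also held Plac8, at 37.3 to 939 CPM over the 6 tumors.

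Thbs1, the matrix glycoprotein thrombospondin 1, held 16.1, 12.7, 14.6, 394 and 42.4 in macrophages and 279, 133, 958, 1801 and 68.2 in monocytes (log2 fold change -3.43 ± 0.58 (SE, n = 5 tumors), adjusted p = 0.00557). eRT 2 was high in both kinds, and the ranges overlapped. Rsad2, the antiviral protein viperin whose promoter carries the interferon-response core printed above, held 61.1, 19.8, 97.4, 136 and 7.17 against 117, 133, 811, 448 and 136 (log2 fold change -2.32 ± 0.35 (SE, n = 5 tumors), adjusted p = 0.00336). Emilin2, an extracellular glycoprotein, held 3.22, 46.8, 38.5, 89.2 and 36.3 against 132, 157, 249, 312 and 136 with no overlap (-2.19 ± 0.32, adjusted p = 0.00302), and Clec4e, the lectin receptor Mincle, 0, 33.8, 51.1, 329 and 7.78 against 102.7, 88.9, 221, 1140.4 and 136 (-2.07 ± 0.38, adjusted p = 0.00912).

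Tmsb10, an actin-sequestering thymosin, was the most abundant of the genes named as lower, with 525, 954, 997, 1582 and 447 CPM in macrophages and 3623, 3350.4, 2211, 2865 and 2181 in monocytes (-1.60 ± 0.25, adjusted p = 0.00348). The kinds did not overlap for it, nor for the histone demethylase Kdm7a (-1.57 ± 0.26, adjusted p = 0.00544) or for Emb, the membrane glycoprotein embigin (-1.88 ± 0.43, adjusted p = 0.031). Wfdc17 (-1.63 ± 0.29), the tetraspan protein Ms4a4c (-1.88 ± 0.35) and Cytip, a regulator of leukocyte adhesion (-1.78 ± 0.30), were lower in macrophages in all 5 tumors. The calls for Emb, Slfn1 (-1.90 ± 0.43), the peroxiredoxin Prdx6 (-1.57 ± 0.31) and the nuclear receptor Nr4a1 (-1.52 ± 0.36) were lost without eRT 3, at adjusted p = 0.101, 0.0918, 0.0601 and 0.0585. Slfn1 was also lost without MYC spinal 1, MYC spinal 3 or eRT 1, Nr4a1 without MYC spinal 3, eRT 1 or eRT 2, and Emb without eRT 1 or eRT 2, with adjusted p values of at most 0.123, 0.115 and 0.101. Of the 30 genes named in both directions, 24 remained called without any 1 tumor and 6 did not.

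**Figure D4:**
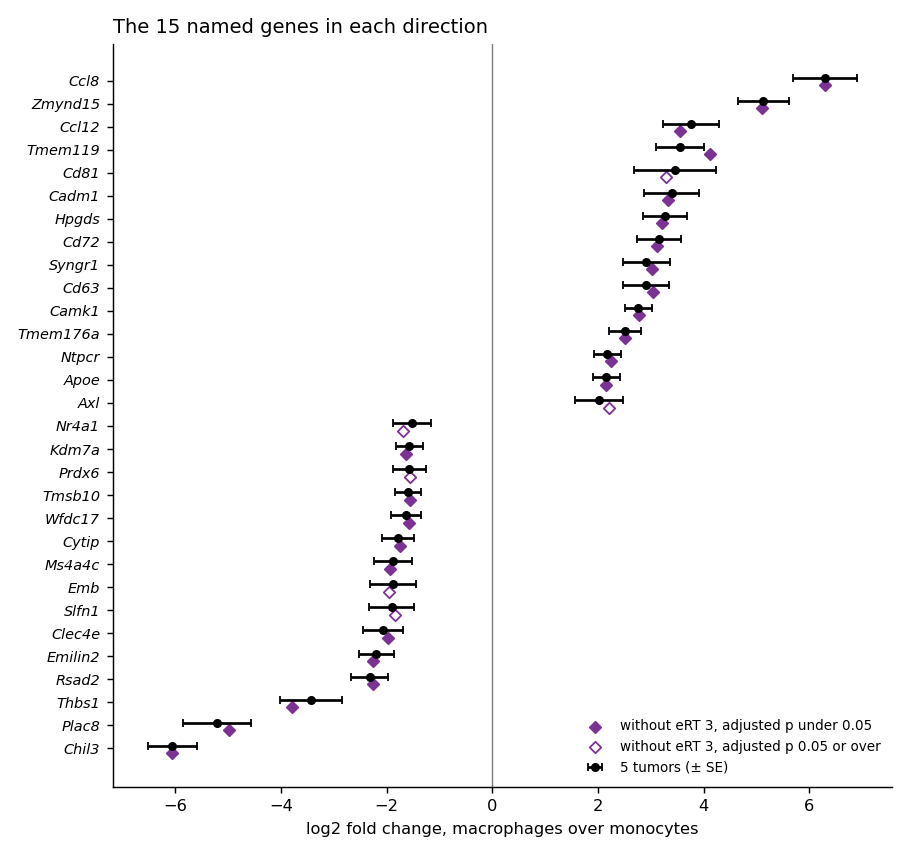
Log2 fold changes of macrophages over monocytes for the 15 genes named in each direction, with standard errors over 5 tumors (black) and without eRT 3 (diamonds, open where the adjusted p was 0.05 or over). Estimates with and without this tumor lie close together, and 6 of the 30 diamonds are open.

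The gene groups below are described by how many members passed the filter on low counts and were called, and by the median log2 fold change of those tested, beside 0.07 over all genes tested. Over all genes tested, 2.17% were called higher in macrophages and 1.6% lower (1.22% and 1.19% without eRT 3). No list was tested against these shares. Of 15 genes of macrophage identity 7 were tested and 4 were higher in macrophages (Apoe, Cx3cr1, Adgre1 and Csf1r) with none lower, at a median of 0.94. Cx3cr1, the receptor for fractalkine, held 669, 131, 207, 225 and 485 against 88.0, 37.6, 92.1, 72.4 and 477 (1.70 ± 0.33, adjusted p = 0.0118; adjusted p = 0.0691 without MYC spinal 3). Csf1r, the receptor on which macrophage survival depends, held 817, 241, 359, 427 and 751 against 543, 126, 239.6, 208 and 409, a small difference seen in every tumor (0.94 ± 0.21, adjusted p = 0.0276). The call of Csf1r was lost without MYC spinal 3, eRT 1, eRT 2 or eRT 3 (adjusted p at most 0.11) and that of Adgre1 without any 1 of the 5 (at most 0.257). Of 19 genes of monocyte identity 9 were tested, 7 were lower in macrophages (Chil3, Clec4e, Emilin2, Ms4a4c, Nr4a1, Plac8 and Thbs1) and none was higher (median -2.07). Lyz2 and Fn1 were the tested members that were not called (-0.19 ± 0.28 and -1.17 ± 0.31). Both identity lists overlap the markers on which the kinds are known, and their direction is no independent result.

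Of 25 lysosomal proteases and hydrolases 20 were tested, 7 were higher (Ctsb, Ctss, Ctsz, Grn, Gusb, Hexa and Lgmn) and none was lower, at a median of 0.70. Ctss, the cathepsin that trims the invariant chain of MHC class II, held 15006, 1654, 4314, 2422 and 4124 CPM against 8126, 728, 2608, 1525 and 2454 (1.01 ± 0.19, adjusted p = 0.0101). Lgmn, an asparaginyl endopeptidase, held 4659.8, 702, 1968, 2060.3 and 1681 against 1907, 212, 1474, 466 and 886 (1.47 ± 0.26, adjusted p = 0.00701), and Ctsz 4496, 1182, 2071, 1145 and 1314 against 1701, 554, 958, 634 and 545 (1.28 ± 0.22, adjusted p = 0.00544). Each was higher in macrophages in all 5 tumors, and Lgmn and Ctsz remained called without any 1 of them. Ctsd, a cathepsin with 13162 in the macrophages of MYC spinal 1 against 1100.1 in its monocytes, was not called (1.199 ± 0.48, adjusted p = 0.256). Without eRT 3 the calls fell to 4 of 21 (Ctss, Ctsz, Grn and Lgmn) at a median of 0.71. The call of Ctss was lost without MYC spinal 3 (adjusted p = 0.0524) and that of Grn in each of the other 4 fits without 1 tumor (at most 0.107). Ctsb was also lost without eRT 2, Gusb without MYC spinal 1, MYC spinal 3 or eRT 2, and Hexa without MYC spinal 1, eRT 1 or eRT 2, at adjusted p values of at most 0.0705, 0.085 and 0.164.

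Of 23 genes of lipid handling 15 were tested and 3 were higher in macrophages (Apoe, Cd63 and Pltp), with none lower and a median of 0.50. Trem2, a lipid receptor of macrophages in adipose tissue, brain and tumors, held 1928, 70.6, 336, 357 and 434 CPM against 235, 30.8, 295, 27.2 and 341 and missed the threshold (1.86 ± 0.49, adjusted p = 0.0555). Spp1, or osteopontin, pointed in different directions in different tumors, with 13291, 829.9, 2686, 1882 and 717 in macrophages and 1452, 1046, 12974, 348 and 4702 in monocytes (0.10 ± 0.84, adjusted p = 0.998). Pltp, the phospholipid transfer protein, was called (1.505 ± 0.36, adjusted p = 0.0371) but was higher in macrophages in only 3 of 5 tumors, and the call was lost without eRT 3 (adjusted p = 0.0702), MYC spinal 3, eRT 1 or eRT 2 (at most 0.195).

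MHC class II genes did not pass the test. All 6 tested of 10 had a positive estimate (median 1.06) and none was called. Cd74, the invariant chain, held 16982, 19636, 13933, 10705 and 40200.0 CPM in macrophages and 28558, 3966, 2562, 5819.7 and 33463 in monocytes (1.21 ± 0.36, adjusted p = 0.105). MYC spinal 1 went against the other tumors, its monocytes holding more Cd74, H2-Aa, H2-Ab1 and H2-Eb1 than its macrophages, while in MYC spinal 3 and eRT 1 the macrophages held several times more. Among 13 MHC class I genes 10 were tested and none was called (median 0.26). None of the 6 Fc receptor genes, all tested, was called (median -0.08), nor any of the 4 tested of 14 complement genes beyond C1q (median 0.44).

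Among 22 chemokine ligands 15 were tested. Ccl8, Ccl12 and Cxcl14 were higher in macrophages and Ccl6 was lower, with a median of -0.03. Ccl6 went the other way in eRT 2, with 1689.5 in macrophages and 1367 in monocytes. Ccl2, the main ligand of Ccr2, held 853, 265, 623, 2544 and 899.9 in macrophages and 601, 503, 1668, 2602 and 136 in monocytes and did not differ by more than the spread between tumors (-0.03 ± 0.43, adjusted p = 1), in contrast to its neighbours Ccl8 and Ccl12. Cxcl2, a neutrophil attractant, was abundant in both kinds of eRT 2 (9292 and 19717) and low in both of MYC spinal 1 (35.4 and 14.7). The calls of Cxcl14 (1.77 ± 0.43, adjusted p = 0.0374) and Ccl6 (-1.54 ± 0.39, adjusted p = 0.0495) were lost without eRT 3 (adjusted p = 0.16 and 0.206), and each also without 3 of the other tumors (MYC spinal 1, MYC spinal 3 and eRT 2 for Cxcl14, MYC spinal 1, MYC spinal 3 and eRT 1 for Ccl6), at adjusted p values no higher than those. Of 11 chemokine receptors 4 were tested and only Cx3cr1 was called. Of 22 inflammatory cytokines and receptors 12 were tested and Il17ra alone was called, as lower in macrophages (-1.37 ± 0.30, adjusted p = 0.0244; lost without MYC spinal 1, MYC spinal 3 or eRT 2, adjusted p at most 0.125). Il1b was not called (-0.44 ± 0.45, adjusted p = 0.752).

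Of 31 interferon-stimulated genes 20 were tested. Rsad2, Ifitm3 and Isg15 were lower in macrophages and none was higher, with 4 positive estimates and a median of -0.58. Ifitm3, which blocks virus entry, held 1677, 1039.7, 1968, 3229 and 1205 CPM against 6336, 2345, 3815, 4697 and 4021 and was lower in macrophages in all 5 tumors (-1.09 ± 0.20, adjusted p = 0.00945). Isg15, a ubiquitin-like modifier, held 364, 206, 381, 497 and 68.4 against 1599, 318, 931, 592.8 and 409, and its call was lost without MYC spinal 1, MYC spinal 3, eRT 1 or eRT 3 (-1.11 ± 0.28, adjusted p = 0.0452; at most 0.131). Oasl2 had a positive estimate that did not pass (0.22 ± 0.41).

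Of 23 genes of glycolysis and hypoxia 17 were tested, 16 had negative estimates, and 4 were lower in macrophages (Bnip3, Ero1l, Pfkp and Slc16a3) with none higher, at a median of -0.59. Bnip3, a mitochondrial protein induced by hypoxia, held 61.1, 54.7, 95.7, 65.7 and 8.19 against 337, 102.6, 378, 127 and 0 (-1.48 ± 0.29, adjusted p = 0.0119; adjusted p = 0.085 without eRT 1), and Slc16a3, which exports lactate, 132, 63.4, 127, 89.2 and 54.1 against 337, 92.3, 341, 204 and 204 (-1.07 ± 0.23, adjusted p = 0.0202). Without eRT 3, 1 of 18 was called (Bnip3) and the median was -0.66. Slc16a3 was also lost without eRT 1 or eRT 2, Pfkp without MYC spinal 1, eRT 1 or eRT 2, and Ero1l without MYC spinal 1, MYC spinal 3 or eRT 1, at adjusted p values of at most 0.123, 0.0742 and 0.218. Arg1, an arginase of myeloid cells in tumors, was highest in eRT 1, at 928 in macrophages and 5224 in monocytes, and was not called (-1.77 ± 0.53, adjusted p = 0.103).

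Adhesion genes separated into 3 that were lower in macrophages among 10 tested of 20 (Cd24a, Itgb7 and Cytip) and 7 that were not called, including Itgam (0.00 ± 0.40) and Itgb2 (-0.15 ± 0.26). Cd24a, a ligand of inhibitory siglecs, held 0, 8.46, 10.6, 51.6 and 0.41 CPM against 88.0, 54.7, 184, 172 and 68.2 (-3.17 ± 0.49, adjusted p = 0.00345), and the integrin chain Itgb7 12.9, 8.78, 9.54, 28.2 and 1.02 against 117, 51.3, 64.5, 95.03 and 68.2 (-2.55 ± 0.38, adjusted p = 0.00336). Neither overlapped between the kinds, but for both genes the monocyte value of eRT 3 is 1 UMI, and 0 there would have made the kinds overlap. Both remained called without any 1 tumor. Alarmin and granule genes outside the assignment included Slpi, Wfdc17 and Anxa2 as lower in macrophages among 11 tested (median -1.42), with Anxa2 lost without eRT 3 (adjusted p = 0.0587). Neutrophil genes were higher in monocyte sums in 4 of 5 tumors, and of their list the only gene tested, Retnlg, was also lower in macrophages (-1.40 ± 0.33, adjusted p = 0.0391, tested in 2 of the 5 fits without 1 tumor; adjusted p = 0.0984 without eRT 3).

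Of 30 myeloid transcription factors 18 were tested and Nr4a1 was the only 1 called. Spi1, which encodes PU.1, held 479.5, 661, 737, 441 and 426 against 675, 417, 617, 412 and 409 and did not differ by more than the spread between tumors (0.27 ± 0.21, adjusted p = 0.627). Thbs1 was the only 1 of 8 tested matrix genes to be called, Blvrb the only 1 of 7 tested genes of iron and heme (1.55 ± 0.31, adjusted p = 0.0151; lost without MYC spinal 3 or eRT 2, at most 0.0716), Axl the only 1 of 9 scavenger and efferocytosis receptors, and Csf1r the only 1 of 3 of the colony-stimulating factor axis. Of 9 tested cell cycle genes, 8 had positive estimates, at a list median of 0.87. Only Tubb5 was called, as higher in macrophages (0.87 ± 0.22, adjusted p = 0.0486), and it lost its call without any 1 tumor. None of 11 tested checkpoint genes and none of 23 tested ribosomal protein genes was called (medians 0.10 and 0.07, turning to -0.01 and -0.08 with plain library sizes, as that of the colony-stimulating factor axis turned from 0.01 to -0.13). Of 10 microglia genes 2 passed the filter, and Tmem119 was higher in macrophages.

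**Figure D5:**
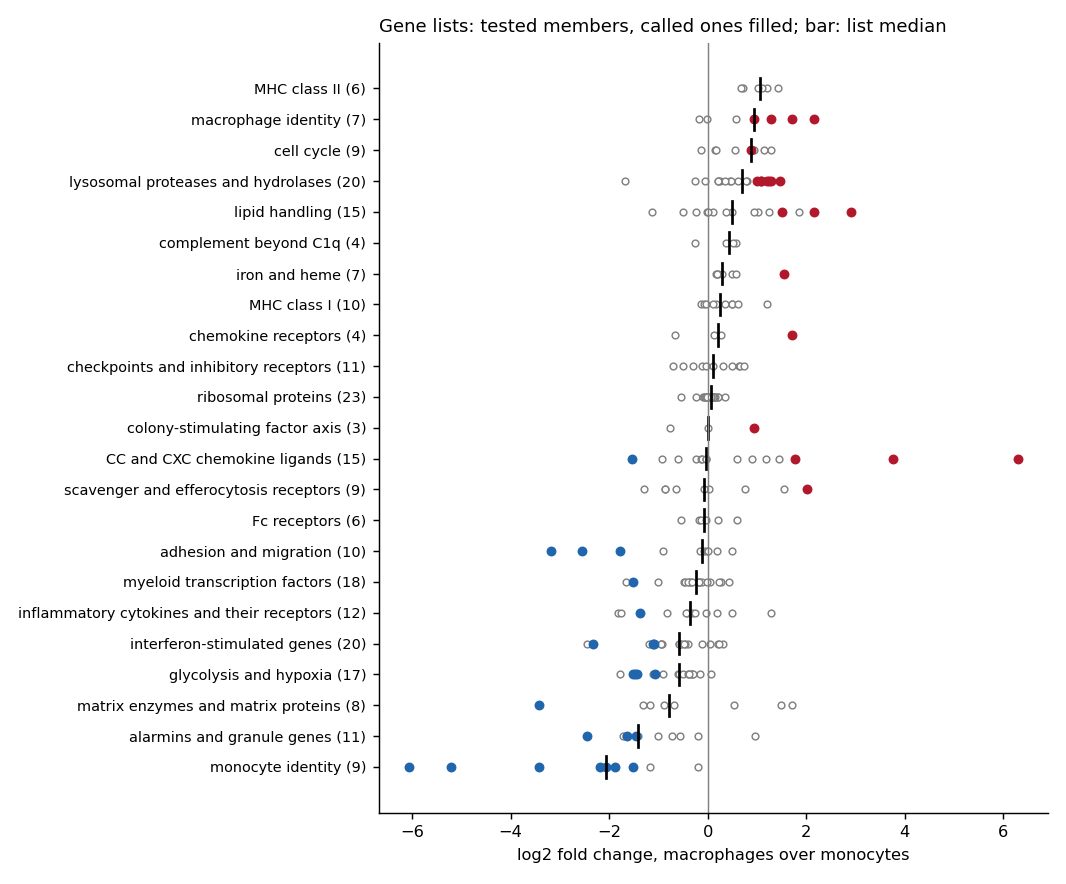
Log2 fold changes of macrophages over monocytes for the tested members of each gene list (number tested in parentheses), filled where called, with the list median as a black bar. Called members higher in macrophages include 7 of 20 lysosomal genes and 4 of 7 macrophage identity genes, and those lower 7 of 9 monocyte identity genes, 3 of 10 adhesion genes, 3 of 11 alarmins and 4 of 17 genes of glycolysis and hypoxia. Over all genes tested, 2.17% were called higher and 1.6% lower.

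A further 1628 cells met the C1q limit but also carried Ly6c2 or Ccr2, and so entered neither kind. They made up 20.5%, 23.2%, 39.96%, 29.5% and 27.2% of C1q-high cells in the 5 tumors. Their sums stood between those of macrophages and monocytes for both marker sets. The macrophage markers summed to 59337, 3794, 8792, 21642 and 34604 CPM and the monocyte markers to 3930.2, 476, 425, 2492 and 139. Apoe made up most of the macrophage marker sum in each tumor, and single markers did not all lie between the kinds. In MYC spinal 1, Fcgr1 held 955, above macrophages (631) and monocytes (719), and Csf1r held 424, below both (817 and 543). Of the 64 genes higher in macrophages, 61, 58, 55 and 56 lay nearer to macrophages than to monocytes on the log2 scale in MYC spinal 3, eRT 1, eRT 2 and eRT 3, and 38 in MYC spinal 1. Of the 47 lower genes, 42, 46, 31 and 47 did so in those 4 tumors, but only 18 in MYC spinal 1, where 28 lay nearer to monocytes. Chil3 was found in 30.8% of these cells in MYC spinal 1 and 0.502% in eRT 3, against 0.211% and 0% of T cells (0 of 171 in eRT 3). Median depths there were 3758 and 2469 UMIs beside 1903 and 1309. In MYC spinal 3 it was found in 45 of 342 of these cells and 24 of 188 T cells, at median depths of 2299 and 2402 UMIs. The counts were 41 of 412 and 1 of 43 in eRT 1, and 10 of 46 and 20 of 458 in eRT 2. The part of background in these counts was not tested. These C1q-high cells with Ly6c2 or Ccr2 were chosen with part of the assignment, and they share tumors with both kinds, so no test was made. The 64 and 47 genes were called on the sums of those same tumors. The counts of genes nearer to either kind were not made over all genes tested.

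MYC spinal 2 entered no fit, and its cells give the same measures in a tumor that did not choose the genes. Its 8 macrophages held 7676 UMIs in all, so a count of 0 allows up to 391 CPM. Of the 64 genes higher in macrophages elsewhere, 42 were higher and 18 lower in its macrophages than in its monocytes, and of the 47 lower genes 39 were lower and 8 higher. A count of 0 in the macrophages stands behind 27 of those 39, and over all 2945 genes tested 64.0% were lower and 35.5% higher in these macrophages, with 49.6% at 0. Its 871 monocytes, with 905449 UMIs, were below every macrophage sum of the other tumors for 60 of the 64 genes and above every macrophage sum for 22 of the 47. The same counts were not made over all genes tested, so they have no background share beside them and are a description only. The monocytes held no Ccl8 or Ccl12 UMI, which allows up to 3.31 CPM, 993 CPM of Chil3, 2394 of Plac8 and 152 of Apoe. Neutrophil genes summed to 1547 in these monocytes and 1303 in the macrophages, above every macrophage and monocyte sum of the other tumors, and to 2421 in the T cells of this tumor. At least 1 such UMI was held by 654 of the 871 monocytes. The monocytes also held 385 UMIs of Prtn3, 278 of Elane and 130 of Ctsg, which are further granule genes. The part of all these genes in the counts was not tested.

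The difference between the kinds was compared between the 2 MYC spinal tumors and the 3 eRT with an interaction term. Of 2945 genes 1 was called (0.034%), and 65 had an unadjusted p under 0.05. The gene was Ccl5, a chemokine made by T cells, NK cells and some macrophages. It held 274, 179, 121, 558 and 21.1 CPM in macrophages and 1848, 444, 18.4, 104 and 0 in monocytes: monocytes were higher in both MYC spinal tumors and macrophages in eRT 1 and eRT 2, while in eRT 3 the 0 allows up to 204 CPM and gives no direction (log2 fold change in eRT minus that in MYC spinal tumors 4.36 ± 0.59, adjusted p = 0.0383). The highest value, 1848, was in the monocyte sum with 865 CPM of NK cell genes. There, 28 of 126 Ccl5 UMIs fell in the 3 cells with an NK gene UMI, and 7 of the 21 cells held Ccl5. In the macrophages of eRT 1, 73 of 355 Ccl5 UMIs fell in 19 such cells, and in those of MYC spinal 3, 78 of 551 in 28. No other sum compared had more than 4 Ccl5 UMIs in such cells. The 18.4 CPM in the monocytes of eRT 1 is 2 UMIs in 1 cell. The call was lost without MYC spinal 1, eRT 2 or eRT 3 (adjusted p = 0.0633, 0.0839 and 0.443) and among cells with no marker of another cell type (3.41, adjusted p = 1). Over all 5 tumors Ccl5 did not pass the test between the kinds (-0.12 ± 0.71, adjusted p = 0.992). A gene outside this call may still differ between subtypes by an amount that 5 tumors could not show.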

How the data were processed

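Live cells from 6 freshly dissociated murine tumors were sequenced with 10x Genomics 3′ v2 chemistry. Per the labels and the study's methods, the authors aligned reads to mm10 with Cell Ranger 2.0.2 and deposited raw UMI counts per gene and cell, with no normalisation, keeping genes found in at least 3 cells and cells with at least 50 genes; a gene left out of a table was taken as 0. Strand use in counting is not given in the sources used here, so overlapping genes may share reads. The deposited cell names were serial numbers, so barcodes shared between libraries could not be counted.

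Cells were filtered and assigned as the report states. Counts were summed per tumor and kind and fitted in edgeR 4.0.16 (R 4.3.3): genes passing filterByExpr by kind, TMM factors, glmQLFit with tumor as a block, glmQLFTest and Benjamini-Hochberg adjustment over all genes tested. The 8 assignment genes that passed the filter stayed in the fit and out of every count. SE is the log2 fold change divided by the square root of F. Levels are CPM, the UMIs of a gene per 1000000 UMIs of a sum. Both kinds of a tumor come from 1 mouse, which is the pairing. Replicates are tumors of separate mice, and subtype, strain and site cannot be told apart. Named genes are the 15 per direction with the largest fold change among called genes with the same direction in all 5 tumors and a mean log2 CPM of at least 6, 5 per direction for the interaction, and gene list members. The members, lists and tests were chosen with earlier results of these data known. On simulated counts for 2750 of these genes and the 5 tumors, 45 of 45 genes changed by a log2 fold of 2 and 25 of 48 changed by 1 were called, with 14 of 2559 unchanged genes. No doublet caller was run. Some list members are not reported here and were left out of the lists and marker sums. Alternatives were DESeq2 1.42.0, plain library sizes, no count filter, Bonferroni adjustment, other limits on cells and kinds, cells thinned to 1000 UMIs, and each tumor left out. Python 3.11.15 and SciPy 1.17.1 were used for assignment and intervals.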

Additional observations from a re-analysis of the deposited data

Results flagged for a closer look

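Ccl5 was the gene whose difference between macrophages and monocytes differed between subtypes, by an interaction test: the log2 fold change in eRT minus that in MYC spinal tumors was 4.36. Its values, and the NK cell genes beside them, are given in the report.

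Among the 30 genes named in both directions, the log2 ratio of macrophages to monocytes (10 CPM added to each) had 1 tumor far from the other 4 by Dixon's test in 3 cases, where chance alone gives about 1 in 20. Zmynd15 had a ratio of 5.70 in eRT 1 and 2.90 to 3.43 elsewhere, but the monocyte sums of eRT 1, MYC spinal 1 and eRT 3 held no UMI of it, so those ratios are set by the 10 CPM added. Ms4a4c had -3.88 in MYC spinal 1, the tumor whose monocytes held 2655 CPM of it, and -1.76 to -0.942 elsewhere. Wfdc17 had -0.289 in eRT 2, where both kinds held 2943 and 3598 CPM, and -2.32 to -2.04 elsewhere.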

How the results depend on the processing

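The count of 111 called genes stayed within 1.5 times its value under DESeq2 (124), plain library sizes (112), C1q limits of 10 and 40 (105 and 128), no F13a1 in macrophages (112), an S100 limit of 100 (100), the stricter cell filter of 500 genes and 10% mitochondrial UMIs (111) and without the deepest 5% of cells (92). It moved to 333 of 14665 genes with no count filter, 12 with Bonferroni adjustment, 4 with all 3 monocyte genes required (2 tumors), 66 among cells with no marker of another type, 42 of 1433 genes on cells thinned to 1000 UMIs (4 tumors), 61 on thinned cells with a minimum of 7 cells (all 5 tumors; chosen after seeing the data), 73 with at least 20 cells of each kind, 19 in MYC spinal tumors alone, 34 in eRT alone, 36 in Rosa26-cre tumors alone, and 7 with no replicate block, which ignores the pairing of kinds within a tumor. Leaving out 1 tumor gave 70 to 88. None of the 30 named genes, Ccl5 or the called list members changed sign in any fit. Of 30 genes named, all but 6 kept their call without each tumor.

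The interaction count of 1 became 2 with plain library sizes, 14 with no count filter, and 0 with the stricter cell filter, either C1q limit, thinning with either minimum, no marker of another type, at least 20 cells, or Rosa26-cre tumors alone, and 0 to 4 without 1 tumor. With DESeq2 it stayed at 1. Over these fits the adjusted p of Ccl5 ranged from 1.76e-05 to 1, and its estimate from 3.15 to 4.92. The interaction could not be fitted with all 3 monocyte genes required. The difference in macrophage share turned to -17.8 points with at least 20 cells of each kind, ranged from -7.88 to 38.4 without 1 tumor, and passed no test. The causes of these shifts were not tested, beyond fewer tumors, cells or genes where stated. Among the sums compared, depth limits the 10 monocytes of eRT 3 most, where 1 UMI is 68.2 CPM.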
